A study of Rattus norvegicus with 4 samples.

Results

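Disease-associated microglia were sought in the rat hippocampus as single cells that held microglial complement transcripts together with transcripts of Axl, Clec7a, Lgals3, Itgax and Gpnmb. Members were chosen by their measured counts of these and a few other genes. A cell was a member when it held 500 or more transcript counts (unique molecular identifiers, UMIs) from 300 or more genes, no more than 20% of them mitochondrial, and when C1qa, C1qb and C1qc together gave at least 5 UMIs. It also had to hold at most 3 UMIs of the endothelial genes Cldn5 and Flt1, at most 5 of the myelin genes Mag, Mog and Mobp, and 0 of Mrc1 and Cd163, which mark macrophages of the brain's borders. The 5 genes of the name had to sum to at least 3 UMIs, and the MHC class II genes RT1-Ba, RT1-Bb, RT1-Da and RT1-Db1 had to stay under 1% of the cell's UMIs. The rule found 326 members among 28879 kept cells, from 31638 barcodes. They were set against 6626 comparison cells that passed the same limits and had a 5-gene sum of 0.

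The series held 4 titled samples of wild type hippocampus: NC, a negative control; MCAO, with the middle cerebral artery occluded on 1 side; and DEPR and MD, both described by chronic stress. The design text gives male adult Sprague Dawley rats of 10 to 12 months in 2 groups of 10, artery occlusion in both groups, stress afterwards in 1 of them, and hippocampi of 5 animals per group for sequencing. It does not say how the 4 titles map onto these groups, or whether tissue was pooled. All counts came in 1 matrix whose barcodes carry 4 suffixes, and no label ties a suffix to a title, so the suffixes are given as barcode sets 1 to 4, each with its own values. No treatment was compared, and the sets were not tested against each other. Levels are given per set; a median log2 ratio of a gene list takes, for each gene, the median over the sets used, which for 2 sets is their mean.

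Microglia are the resident macrophages of the brain, and complement C1q is among their most abundant products. In mouse models of neurodegeneration, microglia near damaged tissue or amyloid take on a disease-associated state in which genes of lysosomes and lipid handling rise and genes of the resting state, such as P2ry12 and Tmem119, fall. The receptor Trem2 senses lipids and cell debris and signals through its adaptor Tyrobp, and the later step of that state depends on it. Of the 5 genes of the rule, Axl encodes a receptor kinase for dying cells, Clec7a the beta-glucan receptor dectin-1, Lgals3 the sugar-binding protein galectin-3, Itgax the integrin subunit CD11c and Gpnmb a glycoprotein of lysosomes and the cell surface.

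Promoters are shown for the gene of the rule that took the most UMIs, Gpnmb, and for the lysosomal genes the values below turn on, Ctsd, Cd63 and Cd68. They are RefSeq windows on the assembly GRCr8, from 250 bases before to 50 bases after the gene's start, read 5′ to 3′ on the gene's strand. 3 sets of letters were searched for on both strands: CACGTG, the E-box core bound by the lysosomal regulators of the TFE family; TGAGTCA or its complement TGACTCA, the AP-1 site; and GAGGAAGT, a form of the PU.1 site of macrophages. Capitals mark a match. The windows are chr4:79340878-79341177 on the plus strand for Gpnmb, chr1:206968772-206969071 on the minus strand for Ctsd, chr7:1921894-1922193 on the plus strand for Cd63 and chr10:54882392-54882691 on the minus strand for Cd68.
Gpnmb: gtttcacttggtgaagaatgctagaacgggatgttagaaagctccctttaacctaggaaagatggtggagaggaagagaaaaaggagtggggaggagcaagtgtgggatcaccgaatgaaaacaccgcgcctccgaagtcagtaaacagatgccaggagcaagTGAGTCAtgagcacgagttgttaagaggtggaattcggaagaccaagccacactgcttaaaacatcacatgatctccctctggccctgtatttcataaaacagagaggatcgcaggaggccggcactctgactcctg
Ctsd: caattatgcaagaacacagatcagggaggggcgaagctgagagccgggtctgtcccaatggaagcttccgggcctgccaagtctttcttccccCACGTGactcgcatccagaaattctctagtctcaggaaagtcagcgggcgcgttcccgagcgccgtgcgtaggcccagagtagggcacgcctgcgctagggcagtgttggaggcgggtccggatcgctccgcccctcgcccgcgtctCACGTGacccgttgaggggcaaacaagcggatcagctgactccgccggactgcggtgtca
Cd63: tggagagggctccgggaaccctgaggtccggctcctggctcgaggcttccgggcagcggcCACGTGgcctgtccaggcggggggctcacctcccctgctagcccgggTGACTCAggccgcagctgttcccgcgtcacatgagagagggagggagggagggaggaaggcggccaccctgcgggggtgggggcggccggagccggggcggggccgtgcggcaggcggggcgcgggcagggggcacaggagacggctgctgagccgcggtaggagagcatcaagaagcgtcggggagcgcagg
Cd68: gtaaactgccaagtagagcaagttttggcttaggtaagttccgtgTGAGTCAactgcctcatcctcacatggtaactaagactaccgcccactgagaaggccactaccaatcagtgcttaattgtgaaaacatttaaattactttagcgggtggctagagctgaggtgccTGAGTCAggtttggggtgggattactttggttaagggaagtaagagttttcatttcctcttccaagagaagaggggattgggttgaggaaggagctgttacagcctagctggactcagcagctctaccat
Gpnmb held 1 AP-1 match, 87 bases before the start. Of the other genes of the rule, Itgax held 1 AP-1 match, Axl and Clec7a held 0 matches, and Lgals3 had no promoter in the table. Ctsd held 2 matches of CACGTG, 157 and 10 bases before the start. Cd63 held CACGTG 190 bases before the start and TGACTCA 143 bases before it. Cd68 held 2 AP-1 matches, 205 and 80 bases before the start. Over all 27457 promoters of the table, CACGTG was in 6.63%, the AP-1 letters in 4.62% and GAGGAAGT in 2.42%. A match is a description of the letters and does not show that a factor binds there.

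The members were unevenly spread. Sets 1 to 4 held 127, 150, 16 and 33 members beside 987, 1578, 1395 and 2666 comparison cells. The sets held 5315 to 8760 kept cells and 36242408 to 54295520 UMIs each. At the median the members had 6304, 6064, 8482 and 8990 UMIs per cell, and the comparison cells 3593, 3794, 6523 and 5576, so the members were the deeper cells in every set. Among all barcodes, 96 sequences occurred in more than 1 set, and 2 members carried such a sequence.

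The label was checked against markers of other cells, and some members did not meet it. In sets 1 and 2, 10 and 14 members had at least 5 UMIs of ependymal markers, the genes of the ciliated cells that line the ventricles, and no member of sets 3 and 4 did. C1q took 0.0380% and 0.123% of their UMIs at the median, against 1.72% and 1.98% in the other members of these sets. They held 83 and 109 Lgals3 UMIs, which was 44.4% and 41.6% of all Lgals3 UMIs in the members of sets 1 and 2, and 0 of Clec7a. Together, 49 of the 326 members had at least 5 UMIs of an ependymal, pericyte, oligodendrocyte precursor, neutrophil, T cell or B cell marker list. The doublet caller Scrublet marked 15 members. Leaving out both kinds of cells, a step chosen after the data were seen, left 272 members (110, 125, 12 and 25) and 6488 comparison cells (960, 1531, 1381 and 2616), called the trimmed populations here.

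Markers of most other cell types were low in the trimmed members or stood near the level of the comparison cells, with monocyte markers of set 4 as the exception. The 5 ependymal markers summed to 2.84, 1.27, 0 and 0 counts per 1000000 UMIs (CPM), and the 7 neuronal ones to 0, 1.27, 0 and 0. The trimming removed cells by the ependymal list itself, so the low ependymal sum follows from that step and is no check. In all members the ependymal sum was 668, 647, 12.9 and 26 CPM. The 6 oligodendrocyte markers summed to 232, 294, 595 and 519 CPM, against 302, 323, 625 and 565 in the trimmed comparison cells. The 8 astrocyte markers summed to 164, 186, 166 and 208 CPM against 125, 128, 240 and 248, and Slc1a3 alone made up 91.1% or more of the members' sum. The 8 monocyte markers summed to 735, 810, 283 and 1727 CPM in the trimmed members and 602, 570, 233 and 267 in the trimmed comparison cells. Plac8 made up most of that sum, while F13a1 and Ace were at 0 in the members of every set. Set 4 thus stood apart, and there the trimmed members also had 2491 CPM of Lyz2, a lysozyme of myeloid cells, against 779, and 546 CPM of S100a4, a calcium-binding protein, against 56.7. Vim, which encodes vimentin, stood at 533 CPM in set 4 against 30.3. These genes were picked after their values were seen, and their part in the set 4 values below was not tested.

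Members were a larger share of the C1q-positive cells that passed the limits in sets 1 and 2. The share was 8.34% in set 1 (exact binomial 95% interval 7.0 to 9.84), 6.50% in set 2 (5.53 to 7.58), 1.07% in set 3 (0.612 to 1.73) and 1.16% in set 4 (0.796 to 1.62). Intervals here and below cover counting error only. In the trimmed populations the shares were 7.52%, 5.63%, 0.815% and 0.896%. With each cell thinned to 2000 UMIs, which left out 320, 335, 131 and 298 shallower cells, they were 2.32%, 1.5%, 0.0731% and 0.194%. These thinned shares rested on 27, 29, 1 and 5 cells. Their intervals were 1.53 to 3.35, 1.01 to 2.15, 0.00185 to 0.407 and 0.0632 to 0.453. Of the members thinned, 24 of 123, 25 of 147, 1 of 16 and 4 of 32 stayed members. The order of sets 1 and 2 above sets 3 and 4 was the same at each of these settings.

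A sum of 3 UMIs can also come from RNA that floats free in the droplets or from other cell types. Cells with fewer than 5 C1q UMIs were therefore checked for the same sum. Cells with at least 10 UMIs of the 3 myelin genes (myelin-rich cells) reached it in 0.169%, 0.235%, 0.610% and 0.519% of cases in sets 1 to 4, at medians of 5489, 5001, 6428 and 6148 UMIs. Cells with at least 10 UMIs of the 2 endothelial genes reached it in 3.62%, 2.37%, 4.60% and 4.24%, at medians of 6723, 5112, 5255.5 and 4730 UMIs. The member shares of 8.34% and 6.50% in sets 1 and 2 lay above both. Those of sets 3 and 4, 1.07% and 1.16%, lay above the myelin-rich and below the endothelial cells. The filters were unlike. The limits on class II genes, on Mrc1 and Cd163 and on each other's marker genes were not applied to the myelin-rich and endothelial cells. Without the class II limit the member shares were 14.9%, 12.0%, 2.60% and 2.69%. Axl was found in 16.1%, 13.1%, 1.60% and 1.58% of the C1q-positive cells, at medians of 4190, 4081, 6615 and 5635 UMIs, and in 4.90%, 3.69%, 5.71% and 6.67% of the endothelial cells. Lgals3 was found in 11.1%, 10.5%, 1.54% and 1.51% of the C1q-positive cells, against 9.11%, 9.23%, 7.46% and 7.17% of the endothelial and 1.69%, 1.27%, 2.33% and 1.73% of the myelin-rich cells. In sets 3 and 4 both genes were thus found less often in C1q-positive than in endothelial cells. Gpnmb was found in 8.21%, 6.76%, 1.54% and 1.51% of the C1q-positive cells, against 1.77%, 1.92%, 4.27% and 3.50% of the myelin-rich and 0.392%, 0.264%, 0.317% and 0.202% of the endothelial cells, so in sets 3 and 4 it lay between them. Clec7a stood above both, at 12.2%, 11.7%, 2.0% and 2.77% of the C1q-positive cells against 0.422%, 0.844%, 0.166% and 0.173% of the myelin-rich and 0.784%, 0.792%, 0.159% and 0.202% of the endothelial cells. The part of free RNA in these values was not tested.

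**Figure D1:**
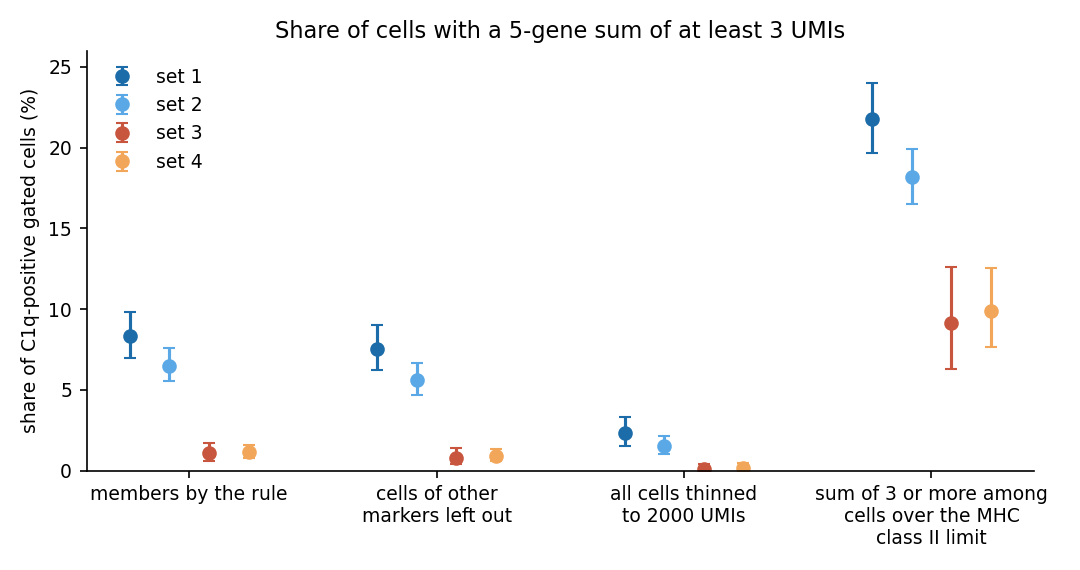
Share of C1q-positive cells with a 5-gene sum of at least 3 UMIs (vertical axis, percent) in barcode sets 1 to 4 (colours), for the members by the rule, for the trimmed populations, after thinning to 2000 UMIs, and for cells over the MHC class II limit. Points are shares and bars are exact binomial 95% intervals; sets 1 and 2 lie above sets 3 and 4 in all 4 columns, and the cells over the limit have the highest shares, 21.8%, 18.2%, 9.12% and 9.90%.

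The MHC class II limit removed most cells that the 5 genes would have chosen. Of 1100 C1q-positive cells with a sum of at least 3, 774 (70.4%) had 1% or more of their UMIs in the 4 class II genes. Among cells over the limit the share with a sum of at least 3 was 21.8%, 18.2%, 9.12% and 9.90%, against 8.34%, 6.50%, 1.07% and 1.16% below it. Cells rich in the 5 genes were thus found more often among the cells rich in antigen presentation genes, in each set; depth was not matched between both sides.

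The 5 genes of the rule contributed unequally. Over all members Gpnmb took 37.0% of their UMIs, Lgals3 26.5%, Clec7a 18.3%, Axl 17.4% and Itgax 0.806%. Lgals3, Axl and Clec7a were each found in about the same number of cells, 52.8%, 52.1% and 52.1% of members, and Gpnmb in 49.7%. Itgax, at 3.68% of members, hardly entered the rule. The sum was 4 at the median and 63 at most. A single gene carried 86 members past the threshold, 143 had 2 of the genes and 97 had 3 or more. These counts describe the choice of cells and are not evidence for it.

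Whether the genes of the rule go together was measured on the gene left out: each was compared between cells with at least 3 UMIs of the other 4 and cells with 0 of them, in the trimmed populations. Gpnmb was 296 against 15.6 CPM in set 1, 295 against 18.7 in set 2 and 99.2 against 4.54 in set 4, which is 19.0-fold (14.0 to 26.1), 15.7-fold (12.3 to 20.2) and 21.8-fold (11.6 to 38.7). In set 3 only 6 cells could be used and they held 0 Gpnmb UMIs, which allows up to 15.6-fold. Clec7a was 3.99-, 3.60-, 10.2- and 16.2-fold higher in sets 1 to 4, from 57, 46, 3 and 11 UMIs. Axl was 2.67-, 3.17-, 41.9- and 33.6-fold higher, from 49, 51, 4 and 11 UMIs. Lgals3 was 4.46-, 4.09-, 15- and 27.9-fold higher, from 50, 51, 3 and 8 UMIs. Thus 4 of the 5 genes were higher where the others were found, and the intervals for Itgax included 1 in each set. In sets 3 and 4 the folds rest on few UMIs, from 6 to 21 chosen cells, and most of these cells lacked the gene. In set 4 Gpnmb was found in 12.5% of 16 cells, Lgals3 in 10.5% of 19, Axl in 28.6% of 21 and Clec7a in 41.2% of 17. In set 3 Axl and Clec7a were each found in 22.2% of 9 cells and Lgals3 in 25% of 12. The intervals count UMIs and not cells.

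**Figure D2:**
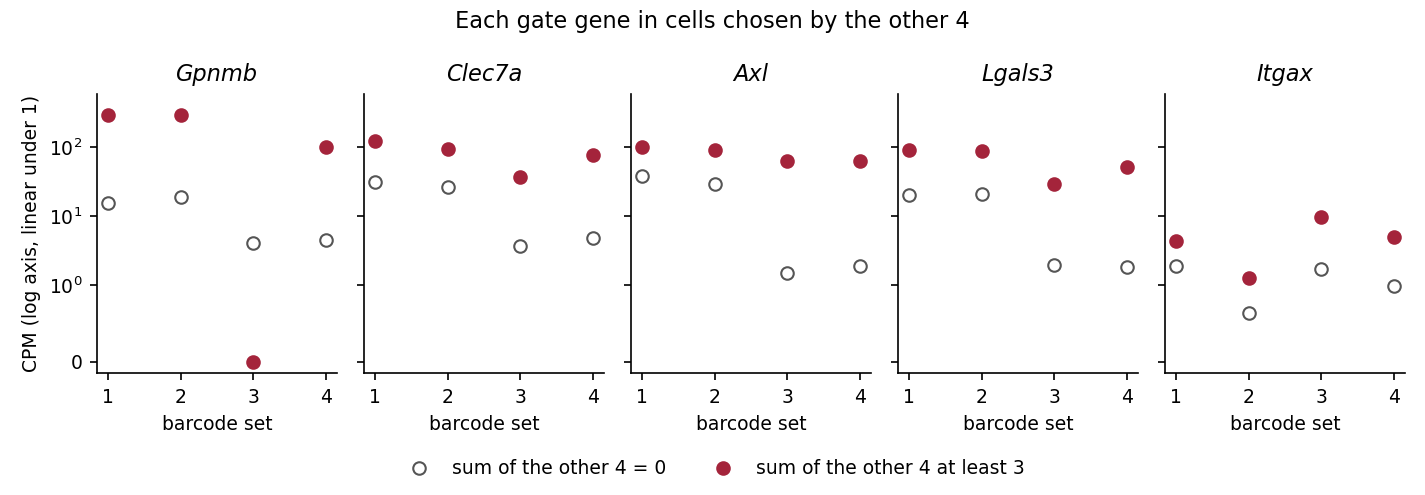
Level of each gene of the rule (vertical axis, CPM on a log axis that is linear under 1) in barcode sets 1 to 4 (horizontal axis), in cells with at least 3 UMIs of the other 4 genes (filled) and with 0 of them (open), trimmed populations. Gpnmb lies at 296 and 295 CPM against 15.6 and 18.7 in sets 1 and 2, and at 0 in the 6 chosen cells of set 3.

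Outside the rule's own genes, the comparison over all genes gave few differences shared by the 4 sets, and for 3 of the 5 genes called in all members most UMIs of 1 population lay in few cells. A gene was measured when at least 10 UMIs were expected in the smaller population of each set, and a call needed a CPM difference of at least 2-fold in every set used. There is 1 library per set, so calls have no replicate check and no test. Of 1652 genes measured in all members, 2 were called higher (0.121%), Crip1 and Cd9, and 3 lower (0.182%), Hba-a2, LOC689064 and AABR07035465.1. Against comparison cells matched to the members on UMIs, 24 of 1782 genes were called higher (1.35%) and 0 lower (0.0%). The 10 richest members held 77.8%, 72.2%, 100% and 98.6% of the members' Crip1 UMIs. The 10 richest comparison cells held 92.3%, 87.7%, 88.6% and 87.6% of the Hba-a2 UMIs of the comparison cells, and 92.2%, 87.7%, 91.4% and 90.6% of those of LOC689064. Cd9 was 423, 519, 755 and 500 CPM in all members against 62.1, 53.0, 213 and 227. After trimming it was 1.87-, 2.53-, 2.84- and 1.93-fold higher, found in 40%, 44%, 91.7% and 76% of members. In sets 1 and 2 alone, 490 of 6051 genes were called higher (8.1%) and 25 lower (0.413%) in all members, against the 11 and 16 given below after trimming. In the trimmed populations Crip1 was 122, 98.0, 0 and 468 CPM against 117, 82.9, 89.7 and 88.6.

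Ctsd, the lysosomal protease cathepsin D, was called higher in all 4 sets after the trimming, a step chosen with the data seen. In all members it had 1166, 1354, 1774 and 2223 CPM against 731, 732, 969 and 966, log2 ratios of 0.67, 0.89, 0.87 and 1.20, and was not called. After trimming it was the 1 gene called higher (0.0912%) of 1097 measured, with 4 lower (0.365%), Hba-a2, LOC689064, Igh-6 and AABR07060872.1. Before trimming, the 10 richest comparison cells held 90.0%, 46.6%, 97.1% and 92.1% of the comparison cells' Igh-6 UMIs in sets 1 to 4. The trimmed members had 1577, 1941, 2175 and 2663 CPM of Ctsd in sets 1 to 4 and the comparison cells 759, 755, 985 and 988. The ratios were 2.08 (1.94 to 2.23), 2.57 (2.43 to 2.73), 2.21 (1.92 to 2.52) and 2.70 (2.48 to 2.93). The 4 member values all lay above the 4 comparison values. Ctsd was found in 95.5%, 96.8%, 100% and 92.0% of members and in 78.0%, 81.0%, 92.5% and 91.4% of comparison cells, so the level differed more than the share of cells with a UMI. Without the richest member of each set the members had 1547, 1891, 2015 and 2251 CPM. In myelin-rich cells it stood at 210 to 265 CPM. Other settings brought set 1 just under 2-fold: the log2 ratios in sets 1 and 2 were 0.92 and 1.15 with TMM scaling and 0.93 and 1.47 against UMI-matched comparison cells.

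Sets 1 and 2, with 110 and 125 trimmed members, allowed more genes to be measured. Of 4718 genes, 11 were at least 2-fold higher in both sets (0.233%), among them Ctsd, Arsb, Fabp5, Sulf2, Cadm1, Bcl2a1, Hopx and Yae1. Another 16 were at least 2-fold lower (0.339%). With TMM scaling, which moved the median log2 ratio of all genes from 0.12 to -0.05, 4 genes were called higher (Fabp5, Sulf2, Cadm1 and Yae1) and 25 lower. Against UMI-matched comparison cells 34 were called higher (0.754%) and 12 lower (0.266%). Among the 16 lower genes were the haemoglobin genes Hba-a2, Hba-a3 and Hbb and the red cell genes Alas2 and Ahsp. The immunoglobulin gene Igh-6 and the lipoxygenase Alox15 were also among them. Before trimming, the 10 richest comparison cells held 90.0% and 46.6% of the comparison cells' Igh-6 UMIs in sets 1 and 2. For Alox15 they held 93.2% and 91.5%. The lower calls were not repeated without the richest comparison cells. Red cell markers summed to 7471 and 6374 CPM in the comparison cells of sets 1 and 2 and to 378 and 334 in the members, and the part of red cell RNA in the lower calls was not tested. Without the member richest in a gene, in each set, 7 of the 11 higher genes stayed at least 2-fold higher in both sets; Arsb and Bcl2a1 were among the 4 that did not.

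Sulf2, a sulfatase that trims heparan sulfate outside the cell, was 3.81-fold higher in set 1 and 3.76-fold in set 2, at 51.2 and 43.3 CPM against 13.4 and 11.5, with 36 and 34 UMIs in 26 members each. Cadm1, an adhesion molecule, stood at 37.0 and 36.9 CPM against 16.5 and 13.1. Myelin-rich cells held more of both, 96.0 and 81.9 CPM of Sulf2 and 54.1 and 62.2 of Cadm1, and the part of such RNA was not tested. Arsb, a lysosomal sulfatase, stood at 74.0 and 68.7 CPM against 30.5 and 34.1. Bcl2a1, an anti-apoptotic protein, stood at 979 and 864 CPM against 426 and 423, but at 332 against 361 in set 3 and 1111 against 332 in set 4. Hopx, a homeodomain protein that does not bind DNA, stood at 235 and 235 CPM against 107 and 96.3. In set 4 it had 70 UMIs in 12 of 25 members, 44 of them in 1 cell.

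Fabp5, a carrier of fatty acids, had the largest ratio of the 11 and the fewest cells behind it. It stood at 112 and 118 CPM in the trimmed members of sets 1 and 2 against 14.3 and 15.5, a ratio of 7.87 and 7.63. In set 1 its 79 UMIs lay in 7 of 110 members, 59 of them in 1 cell, and in set 2 its 93 UMIs lay in 17 of 125 members, 39 of them in 1 cell. Without those cells the ratios were 2.02 and 4.55. Sets 3 and 4 held 3 and 2 UMIs. Myelin-rich cells had 34.1, 40.9, 112 and 134 CPM of Fabp5.

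The genes of the early disease-associated step were mostly a little higher in the members. Of the 9 measured in sets 1 and 2, 8 were above the comparison cells in both sets and 1 was called, Ctsd; over all 4718 genes, 45.0% were above in both sets. Their median log2 ratio was 0.40, against 0.12 for all genes, and 0.23 against -0.05 with TMM scaling, where 7 of 9 were above in both sets against 25.4% of all genes. Ctsb, the lysosomal protease cathepsin B, had 1071, 1129, 1736 and 1913 CPM in sets 1 to 4 against 668, 650, 1281 and 1259. Cstb, an inhibitor of cathepsins, had 284, 374, 410 and 486 CPM against 210, 190, 172 and 160. Both were higher in each of the 4 sets.

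Apoe and Tyrobp, hallmarks of the state in the mouse, did not behave alike over the sets. Apoe, the lipid carrier, had 17103 and 18678 CPM in the members of sets 1 and 2 against 14402 and 14006, and 13097 and 12864 in sets 3 and 4 against 15284 and 15294. In the trimmed populations Apoe was therefore higher in the members of sets 1 and 2 and lower in those of sets 3 and 4. That contrast depends on the trimming. In all members Apoe was lower in every set, at 12823, 13505, 14021 and 11758 CPM against 13880, 13579, 15049 and 14946. Tyrobp, the adaptor of Trem2, had 2717, 2713, 2818 and 3519 CPM against 2096, 2013, 2485 and 2605 after trimming. In all members its log2 ratios were -0.03, 0.02, -0.05 and 0.21. Fth1, the ferritin heavy chain that stores iron, had 9829, 11279, 9128 and 10549 CPM against 7485, 7695, 7256 and 7240. B2m, the light chain of MHC class I, was 8081 to 8602 CPM in the members and 6588 to 7553 in the comparison cells. Lyz2 was the exception in sets 1 and 2, at 351 and 295 CPM against 366 and 348.

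**Figure D3:**
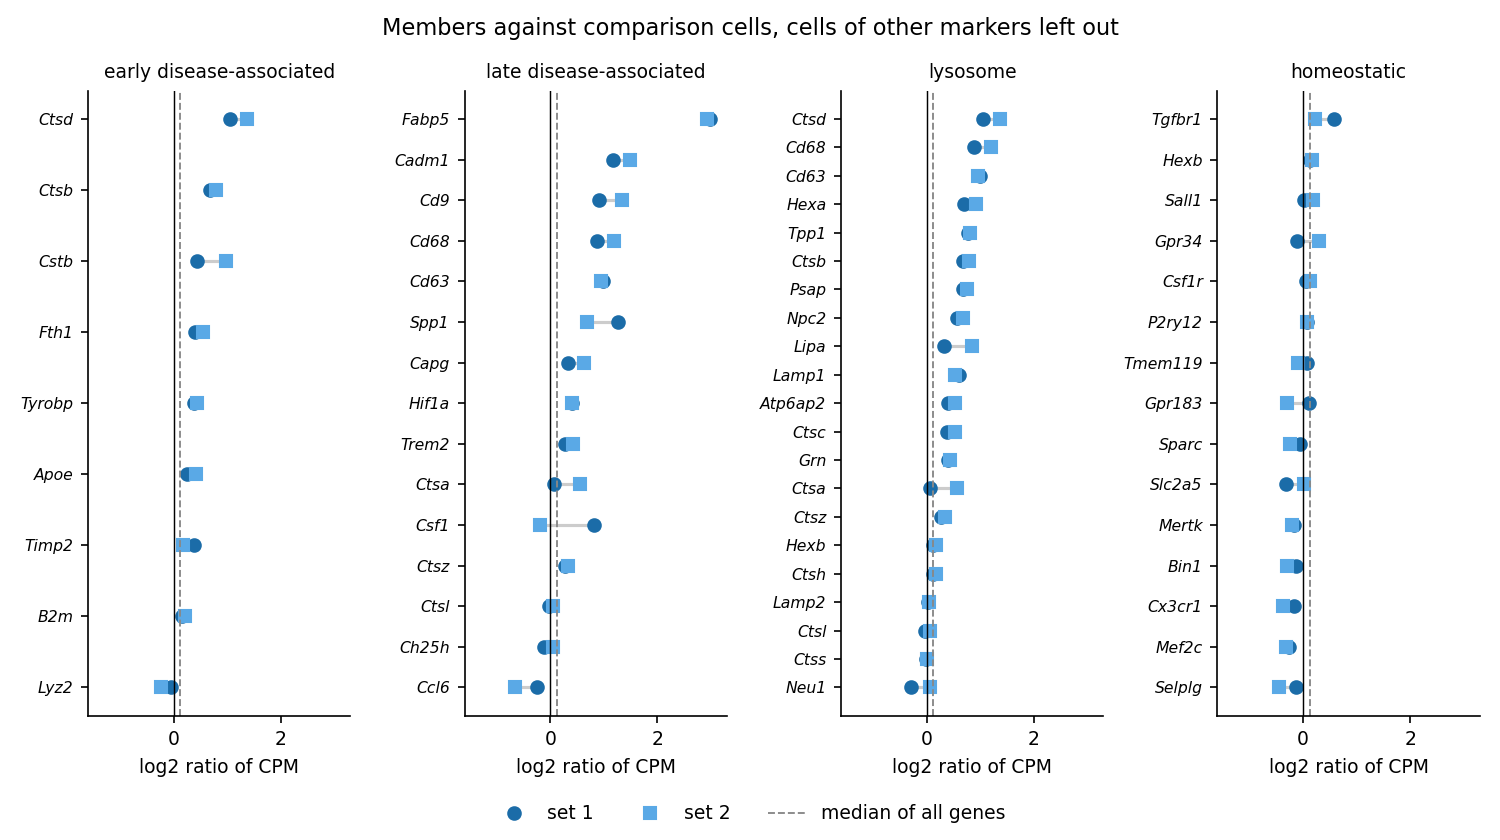
Log2 ratio of CPM, trimmed members over trimmed comparison cells (horizontal axis), for each measured gene of 4 lists in set 1 (circles) and set 2 (squares); the dashed line is the median of all genes, 0.12. Lysosomal genes lie right of the line in most cases, Ctsd, Cd68 and Cd63 farthest, while the homeostatic genes scatter around 0.

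Of the later, Trem2-dependent step, 15 genes outside the rule were measured in sets 1 and 2, 11 were above the comparison cells in both (73.3%, against 45.0% of all genes), and 2 were called (0.233% of all genes), Fabp5 and Cadm1. The median log2 ratio was 0.40, and 0.26 with TMM scaling. Cd63, a membrane protein of late endosomes and lysosomes, had 1304, 1298, 1385 and 1625 CPM in sets 1 to 4 against 655, 668, 624 and 625. Its ratios were 1.99, 1.94, 2.22 and 2.60, so it reached 2-fold in sets 3 and 4 and missed it narrowly in sets 1 and 2. Cd68, a lysosomal glycoprotein of macrophages, had 297, 358, 117 and 190 CPM against 161, 156, 78.6 and 69.1, with 12 UMIs in set 3. Cd9, a tetraspanin of the cell surface, had 112, 126, 614 and 440 CPM against 60.1, 49.8, 216 and 228. Myelin-rich cells had 1888 to 2567 CPM of Cd9, and the part of such RNA in these values was not tested.

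Trem2 itself was not called. After trimming it had 1336 and 1468 CPM in the members of sets 1 and 2 against 1098 and 1094. These ratios of 1.22 and 1.34 were close to those of Apoe, 1.19 and 1.33. In sets 3 and 4 Trem2 had 995 and 1121 against 1068 and 1077. In all members it was lower in every set, at 967, 1027, 1032 and 962 CPM against 1054, 1061, 1051 and 1051. Spp1, osteopontin, had 156, 141, 127 and 139 CPM against 65.3, 88.0, 48.2 and 61.7, but its UMIs lay in 7, 13, 2 and 4 members and 1 member held 33.6% to 60.0% of them in each set. Lpl, lipoprotein lipase, had 0 UMIs in the trimmed members of every set. Cst7, cystatin F, had 0 in sets 1 to 3 and 7 in set 4. A count of 0 allows up to 4.27, 3.82, 29.3 and 13.9 CPM in sets 1 to 4, so both genes, prominent in the mouse state, were not detectable above those levels where they were at 0.

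Downstream of Trem2 there was no common direction. Of 7 measured genes of its signalling list 4 were above (57.1%, against 45.0% of all genes) and 2 below (28.6%, against 17.3%) the comparison cells in both sets 1 and 2, and none was called. Inpp5d, a lipid phosphatase that dampens the signal, had 124 and 109 CPM against 154 and 145. The kinase Syk had 45.5 and 44.6 CPM against 39.2 and 40.2. Of the MiT/TFE transcription factors, which drive lysosomal genes and Gpnmb in macrophages, Mitf had 17.1 and 21.6 CPM against 15.1 and 16 and Tfeb 22.8 and 19.1 against 24.7 and 23.4, from 12 to 17 UMIs in the members.

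Lysosomal genes were mostly higher in the members of sets 1 and 2. Of 21 measured in sets 1 and 2, 18 were above the comparison cells in both sets (85.7%, against 45.0% of all genes) and 0 were below in both, though only Ctsd reached 2-fold. The median log2 ratio was 0.47, and 0.29 with TMM scaling, where 14 of 22 were above in both sets (63.6%, against 25.4% of all genes). In all members, untrimmed and over 4 sets, the median was 0.13, and -0.25 with TMM scaling, where that of all genes was -0.28. Over the 4 sets, 7 of 20 lysosomal genes were higher in every set in all members, against 27.1% of all genes, and 9 of 17 after trimming, against 29.9%. The list shares Ctsd, Ctsb, Cd63 and Cd68 with the lists above, so it is not separate evidence. Psap, the precursor of the saposins, had 1988, 2007, 2194 and 1885 CPM against 1242, 1186, 1511 and 1587. Npc2, which moves cholesterol out of lysosomes, had 3736, 4229, 5422 and 4955 CPM against 2526, 2631, 3999 and 4218. Ctss, a cathepsin of antigen processing, lay at the low end, with 1289 and 869 CPM against 1295 and 866. Among comparison cells matched to the members on UMIs, 14 of 22 lysosomal genes were above in both sets, against 44.2% of all genes.

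Promoters of 20 of the 27 lysosomal genes were in the RefSeq table. CACGTG was in 3 of them, Ctsd, Lamp1 and Cd63, the AP-1 letters in 4, Cd63, Cd68, Neu1 and Atp6v1a, and GAGGAAGT in 3. That is 15%, 20% and 15%, beside 6.63%, 4.62% and 2.42% of all promoters. Of the 12 homeostatic genes with a promoter, 0 held any of the 3. At the shares of all promoters few matches would fall in 12 genes, so this count does not set them apart. Of the 11 genes called higher in sets 1 and 2, 6 had a promoter, and CACGTG was in those of Ctsd, Hopx and Yae1. These counts are small and were not tested.

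The homeostatic genes had CPM near those of the comparison cells in sets 1 and 2, and so lay lower than genes in general. Of 15 measured, 5 were above in both sets (33.3%, against 45.0% of all genes) and 6 below (40%, against 17.3%), and the median log2 ratio was -0.09, against 0.12 for all genes. With TMM scaling 13 of 15 were below in both sets, against 34.6% of all genes, with a median of -0.26, so the count of genes below depends on the scaling. It also depends on the trimming: in all members 13 of 14 homeostatic genes were lower in every one of the 4 sets, against 19.7% of all genes, and after trimming 4 of 14, against 12.1%. P2ry12, the receptor for ATP and ADP that guides microglial processes, had 83.9, 78.9, 68.3 and 97.2 CPM in sets 1 to 4 against 79.3, 75.4, 145 and 141. Tmem119, a membrane protein of microglia, had 353, 350, 351 and 343 CPM against 336, 373, 537 and 542. Cx3cr1, the receptor of neuronal fractalkine, had 141, 146, 205 and 338 CPM against 158, 189, 379 and 434. In sets 3 and 4 all of these were lower in the members, from 7 to 74 UMIs.

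Other homeostatic genes followed the same course. Csf1r, the receptor of the survival factors of microglia, had 933 and 876 CPM in sets 1 and 2 against 901 and 801, and 1346 and 1134 in sets 3 and 4 against 1696 and 1521. Sparc, a matrix protein of resting microglia, had 1003, 929, 3014 and 2246 CPM against 1037, 1105, 4100 and 4408. Sall1, a transcription factor of microglial identity, had 131 and 140 CPM against 129 and 124, and 107 and 120 in sets 3 and 4 against 177 and 195. Tgfbr1, a receptor of the TGF-beta that maintains the resting state, went the other way, at 149, 120, 419 and 324 CPM against 101, 103, 268 and 282. For Tmem119 the difference between the sets lay in the comparison cells, at 336 to 542 CPM, while the members stayed at 343 to 353.

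Lists outside the disease-associated state gave mixed counts in sets 1 and 2, to be read against 45.0% of all genes above and 17.3% below in both. In lipid handling, 9 of 13 genes were above (69.2%), with Abca1, which exports cholesterol, at 96.7, 94.2, 176 and 167 CPM against 69.2, 52.8, 76.5 and 77.9. Of 12 antioxidant and iron genes 9 were above (75%) and 0 below. With TMM scaling 8 of 13 (61.5%) and 6 of 12 (50%) of these lists were above in both sets, against 25.4% of all genes. Hmox1, which breaks down haem, had 107 and 146 CPM against 118 and 104. Of 15 cytokine and chemokine genes 5 were above (33.3%) and 2 below (13.3%), and Il1b had 3219 and 2336 CPM against 2726 and 2500. Of 8 interferon-response genes 3 were above (37.5%) and 2 below (25%). Vegfa, the vessel growth factor, had 99.6, 48.4, 29.3 and 32.4 CPM against 29.6, 26.4, 5.37 and 3.69, from 70, 38, 3 and 7 UMIs.

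Genes that dissociation of tissue is known to induce ran lower in the members. Of 14 immediate early genes, 0 were above and 12 below in both sets 1 and 2, against 17.3% of all genes below, with a median log2 ratio of -0.21 (14 of 14 below and -0.39 with TMM scaling). Fos had 6864, 7221, 3160 and 4121 CPM against 8145, 9234, 6022 and 6920. Of 8 heat shock genes 6 were below, and Dnajb1 had 532, 556, 400 and 1343 CPM against 616, 715, 2486 and 2672. Against UMI-matched comparison cells, 8 of 14 immediate early (57.1%) and 2 of 8 heat shock genes (25%) were below in both sets, against 13.2% of all genes, with medians of -0.08 and -0.04. Both counts were smaller with depth matched, and that of the immediate early genes stayed above the share of all genes. The 2 heat shock genes are too few to set apart from that share. The depth-matched heat shock medians of sets 1 and 2 were -0.17 and 0.11. The part of these genes in the other differences was not tested.

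Levels changed with the gate sum in steps, and the threshold of 3 cut through a slope. In the trimmed cells, Ctsd in set 1 was 759, 995, 1082, 1125 and 1962 CPM at sums of 0, 1, 2, 3 and 4 or more. In set 2 it was 755, 958, 1163, 1574 and 2257, and in set 4 it was 988, 1341, 1626, 1631 and 3327. Set 3 had 985, 1095, 1728, 274 and 2691, where the sum of 3 held 3 cells. Ctsd was highest at 4 or more in each set. The cells just outside the threshold, with a sum of 2, and just inside it, with a sum of 3, had 1030 and 1056 CPM of Cd63 in set 1, 917 and 1108 in set 2, 1031 and 320 in set 3 and 1013 and 1478 in set 4. In all, 293 cells had a sum of 2 and 135 members a sum of 3 before trimming.

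**Figure D4:**
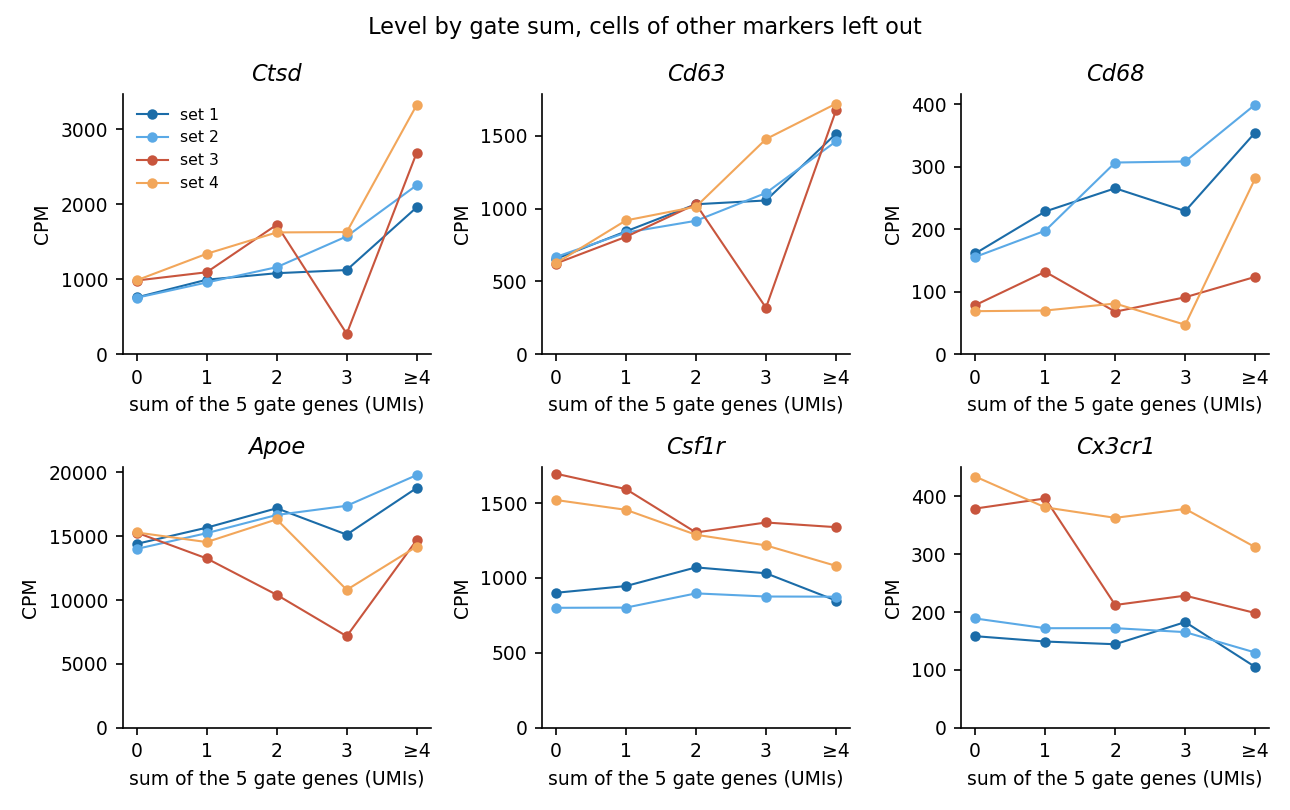
CPM of 6 genes (vertical axes, from 0) by the sum of the 5 genes of the rule (horizontal axis) in barcode sets 1 to 4 (colours), trimmed cells. Ctsd and Cd63 are highest at a sum of 4 or more in all sets, while Csf1r at that sum lies at 849 to 1339 CPM, above the cells with a sum of 0 in set 2 and below them in the others; the point of set 3 at a sum of 3 rests on 3 cells.

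Members with Gpnmb differed from members without it in lysosomal genes. In the trimmed populations 61 of 110, 75 of 125, 6 of 12 and 11 of 25 members had a Gpnmb UMI. Ctsd was 2062, 2479, 4061 and 5078 CPM in members with Gpnmb and 934, 1102, 949 and 1081 in members without it, beside 759, 755, 985 and 988 in the comparison cells. The ratio with over without was 2.21 (1.93 to 2.54), 2.25 (1.99 to 2.55), 4.28 (3.16 to 5.86) and 4.70 (3.88 to 5.72). Per cell, the median was 1797, 2013, 3463 and 4121 CPM with Gpnmb and 818, 998, 348 and 526 without. In the comparison cells it was 642, 630, 763 and 781. In sets 1 and 2 the Ctsd level of members without Gpnmb thus lay between the others by both measures. In sets 3 and 4, with 6 and 14 such members, it was close to the comparison cells by summed CPM and below them by the per-cell median.

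Depth did not separate these members in a common direction. Those with Gpnmb had 6265, 5830, 5835 and 7341 UMIs at the median and those without 5965, 5705, 8361 and 9056. The other genes of the rule did not divide Ctsd in the same way. Members with Clec7a had 1484, 1794, 1142 and 2139 CPM of Ctsd and those without it 1725, 2171, 3121 and 3605, lower with the gene in each set. Members with Axl had 1516, 2074, 1725 and 1524 CPM and those without it 1659, 1766, 2641 and 3426. Members with Lgals3 had 1863, 1805, 1744 and 2154 CPM and those without it 1276, 2100, 2333 and 2950. A member without 1 gene had to hold the others to pass the rule, so these splits are not independent of each other. The gate sum was not matched in them. Gpnmb took 42.2%, 46.2%, 56.1% and 40% of the gate UMIs of the trimmed members, and Ctsd was highest at a sum of 4 or more. The part of the gate sum in the Gpnmb split was not tested.

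Other genes followed Ctsd to different degrees. Ctsb was 1.53-, 1.51-, 1.97- and 2.02-fold higher in members with Gpnmb, and Cd63 1.39-, 1.33-, 2.75- and 2.60-fold. Apoe was 1.5-, 1.56-, 2.63- and 1.34-fold higher, at 19967, 21721, 20974 and 15199 CPM with Gpnmb against 13299, 13929, 7980 and 11334 without. Trem2 was 1.41-, 1.33-, 1.32- and 2.53-fold higher, with an interval in set 3 that included 1 (0.872 to 1.98). Cd68 was 1.83- and 2.41-fold higher in sets 1 and 2, and its intervals in sets 3 and 4 included 1. Csf1r was 0.796, 0.939, 0.875 and 0.934 times the level without Gpnmb. Ctsd, Ctsb, Cd63 and Apoe were thus higher with Gpnmb in each of the 4 sets, while Csf1r was not. The split was chosen after the values were seen, and cells of a set are not replicates.

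**Figure D5:**
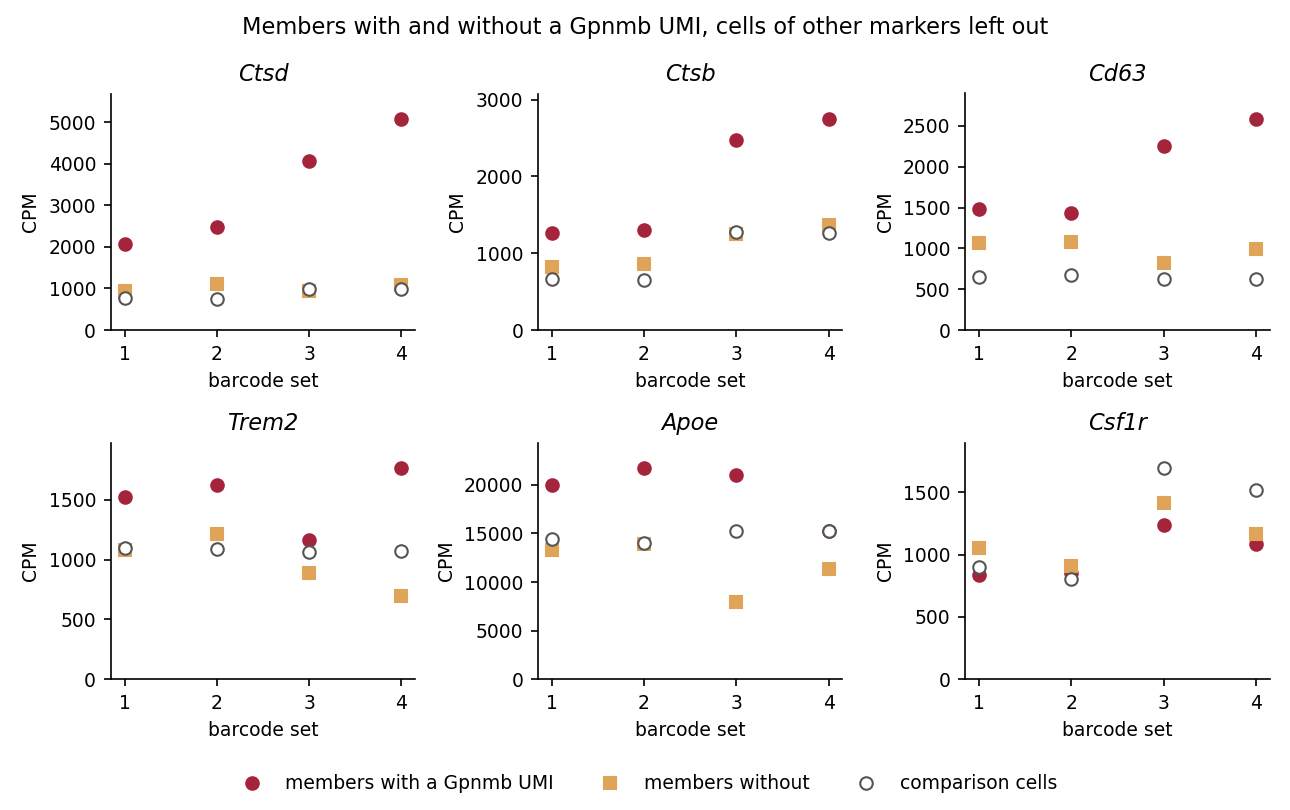
CPM of 6 genes (vertical axes, from 0) in barcode sets 1 to 4 (horizontal axis) for trimmed members with a Gpnmb UMI (red circles), trimmed members without (yellow squares) and comparison cells (open). Ctsd lies at 2062 to 5078 CPM with Gpnmb and at 934 to 1102 without; Csf1r shows no such gap.

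Cells over the MHC class II limit, which the rule leaves out, were compared in the same way, 307, 366, 32 and 60 cells with a sum of at least 3 against 590, 949, 244 and 436 with a sum of 0, after the same trimming. Fabp5 was 4.34-, 5.12-, 8.99- and 12.1-fold higher there, from 341, 227, 41 and 63 UMIs in 52, 64, 7 and 11 cells. Spp1 was 3.86-, 3.77-, 6.02- and 12.8-fold higher, in 52, 62, 12 and 25 cells. In sets 3 and 4 a single cell held 51.2% and 42.9% of the Fabp5 UMIs and 45.7% and 25.8% of the Spp1 UMIs. Cd9 was 2.22-, 2.17-, 2.45- and 2.36-fold higher, Cd63 1.71-, 1.80-, 2.45- and 2.42-fold and Ctsd 1.53-, 1.75-, 2.41- and 2.40-fold. P2ry12 was 1.06, 1.10, 0.501 and 0.495 times the level of cells with a sum of 0, and Tmem119 0.829, 0.751, 0.548 and 0.420 times. Beside these stand ratios below the limit of 7.87, 7.63, 3.92 and 1.26 for Fabp5 and 2.40, 1.61, 2.63 and 2.25 for Spp1. The ratio of Fabp5 was thus lower above the limit in sets 1 and 2 and higher in sets 3 and 4, where few UMIs lay below it. Below the limit in sets 1 and 2, 1 cell of each set held 59 of 79 and 39 of 93 UMIs. Without these cells the ratios below the limit were 2.02 and 4.55, beside 4.34 and 5.12 above it with all cells kept. Above the limit the richest cell held 19.4% and 12.3% of the Fabp5 UMIs and was not left out. Both sides were thus not treated alike, and their order without the richest cells was not measured. The difference between both sides of the limit was not tested.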

How the data were processed

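The authors deposited UMI counts, whole numbers with no normalization, for 32623 genes and 31638 barcodes. Per the file headers, Cell Ranger 5.0.0 wrote the matrix; the submitters' processing notes name Cell Ranger, STAR and Rnor_6.0. Libraries used a Chromium 3′ v3 kit on enzyme-dissociated tissue after red cell lysis, per the labels' protocols. The annotation and the settings of cell calling are not stated there.

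Cells were chosen by the stated rule in each of 4 barcode sets, taken as unassigned libraries. The members and gene lists (37 lists, 424 entries, 405 found) were chosen with earlier results of these data known. UMIs were summed per population and set and divided by the total (CPM). A gene counted as measured when 10 or more UMIs were expected in the smaller population of each set and called at a 2-fold difference in every set used; a count of 0 was replaced by 3. The named genes were the called genes with the largest ratio, up to 12 per direction, the disease-associated, homeostatic, Trem2 and MiT/TFE lists, and the extremes of each other list; Psap, Npc2, Il1b, Fos and Vegfa, and the genes of the set 4 check and of the trimmed calls, were chosen after their values were seen. Where symbols repeat (147), the gene with most UMIs was used. Doublets were called with Scrublet (scanpy 1.11.5, expected share 6%): 942 of 28879 cells (3.26%), kept in the rule's populations and left out of the trimmed ones. Ratio intervals are exact conditional binomial and share intervals Clopper-Pearson, both 95%. TMM factors came from edgeR 4.0.16 on R 4.3.3, which ran no test. Other tools were matplotlib 3.10.9, pandas 2.3.3, scipy 1.17.1 and numpy 2.4.6 under Python 3.11.15. In simulated data for the 4-set comparison of all members, 50 of 50 genes of 4-fold and 43 of 48 of 0.25-fold were called. At 2-fold 3 of 50 were called, at 0.5-fold 5 of 50, and of unchanged genes 0 of 1468. The simulated sums were Poisson counts with no spread between cells. They therefore cannot show how often a gene whose UMIs lie in few cells is called. Not every called gene is reported here.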

Additional observations from a re-analysis of the deposited data

How the results depend on the processing

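The counts of called genes and the list medians moved with the processing, in all members and 4 sets unless stated; settings that trim cells of other markers or use sets 1 and 2 only were chosen after the data were seen. The 2 genes higher became 24 with UMI-matched comparison cells, 1 without doublets, 1 with a gate of at least 5 UMIs, 7 with no MHC class II limit, 1 by the mean of per-cell CPM, 0 with at least 50 and 11 with at least 3 UMIs expected, and 2 to 17 when a set was left out (17 without set 3, 5 without set 4). They were 490 in sets 1 and 2 only (1029 UMI-matched). Trimmed, they were 1 (1 UMI-matched) in 4 sets, and in sets 1 and 2 they were 11, 34 UMI-matched and 4 with TMM scaling. The 3 genes lower became 0 UMI-matched, 6 with TMM scaling, 8 with no MHC class II limit, 0 with at least 50 UMIs expected and 3 to 6 when a set was left out (6 without set 2). They were 25 in sets 1 and 2 only (32 UMI-matched). Trimmed, they were 0 UMI-matched in 4 sets, and 16, 12 UMI-matched and 25 with TMM scaling in sets 1 and 2. The early list's median log2 ratio of 0.26 became -0.12 with TMM scaling. The late list's, -0.01, became 0.27 UMI-matched, -0.22 with TMM scaling, 0.37 with no MHC class II limit and -0.040 to 0.20 when a set was left out. It was 0.28 in sets 1 and 2 (0.41 UMI-matched), 0.12 without ependymal-marker cells, 0.23 trimmed (0.36 UMI-matched), and 0.40 trimmed in sets 1 and 2 (0.49 UMI-matched, 0.26 with TMM scaling). The homeostatic median of -0.46 became -0.30 UMI-matched, -0.85 with TMM scaling, -0.74 with a gate of at least 5, -0.12 UMI-matched in sets 1 and 2 and -0.31 without ependymal-marker cells. It was -0.25 trimmed (-0.19 UMI-matched) and -0.090 trimmed in sets 1 and 2 (-0.10 UMI-matched, -0.26 with TMM scaling). The lysosomal median of 0.13 became 0.31 UMI-matched, -0.25 with TMM scaling, 0.24 with no MHC class II limit, -0.00027 with at least 50 UMIs expected, 0.038 (without set 2) to 0.15 when a set was left out, 0.37 UMI-matched in sets 1 and 2 and 0.24 without ependymal-marker cells. It was 0.31 trimmed (0.37 UMI-matched) and 0.47 trimmed in sets 1 and 2 (0.39 UMI-matched, 0.29 with TMM scaling). Member shares in sets 1 to 4 became 2.32%, 1.5%, 0.0731% and 0.194% after thinning, 3.55%, 2.69%, 0.401% and 0.490% with at least 5 UMIs, and 14.9%, 12.0%, 2.60% and 2.69% with no MHC class II limit. Crip1, higher in all members, had a log2 ratio of -0.24 in the trimmed sets 1 and 2 UMI-matched and -0.019 with TMM scaling. The causes were not tested. Sets 3 and 4 hold 16 and 33 members, so few genes could be measured there. No paired analysis was possible because each title has 1 library and no set is tied to a title.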
